A study of Mus musculus with 12 samples.

Results

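The mitochondrial carriers are a family of membrane proteins, encoded by the Slc25a genes, most of which exchange or import small molecules across the inner mitochondrial membrane. They were chosen by symbol, as every gene whose symbol begins with Slc25a followed by a number and which had an array row annotated with that gene alone. The rule found 39 carriers among 14807 genes with such a row, each with 1 row. A further 8 Slc25a genes of the RefSeq gene table had no row of their own and were not analysed here.

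The cells came from C57BL/6 mice that were homozygous for the gfp allele of Clec9a (Clec9a gfp/gfp, which lack the dead cell receptor DNGR-1) or wild type (WT). Bone marrow was cultured with Flt3 ligand (100 ng/ml) over 10 days, which yields several kinds of dendritic cell. Cultures of each genotype were kept with dead cells for 5 h or left untreated and labelled 0 h, and CD24hi CD11blow B220- dendritic cells of the CD8α+-like kind were then sorted. The dead cells had been exposed to UVC at 240 mJ/cm2 and cultured for a further 24 h. There were 3 arrays in each of the 4 groups, 12 in all, and each gene's value was a linear intensity. Since the untreated cells were a 0 h group, contact with dead cells and the 5 h of culture cannot be told apart.

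Each carrier protein moves its substrate by opening in turn to one side of the membrane and then the other, and many couple the import of one molecule to the export of another. Adenine nucleotide and phosphate carriers supply the ATP synthase and deliver its product to the cytosol. Carboxylate and aspartate/glutamate carriers form the malate-aspartate shuttle and export citrate for fat synthesis, and other members bring in acylcarnitines, amino acids, iron and cofactors made outside the mitochondrion. In dendritic cells, activation by Toll-like receptor ligands is known to be accompanied by citrate export, fatty acid synthesis and a change in mitochondrial respiration.

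In cells kept with dead cells, carriers fell far more often than they rose. In Clec9a gfp/gfp cells 25 of the 39 were lower and 7 higher at an adjusted p under 0.05 (limma, Benjamini-Hochberg over all 23238 rows), where 32.1% of all rows were lower and 16.6% higher. In WT cells 25 were lower and 4 higher, against 31% of all rows lower and 14.5% higher. The same 25 carriers were lower and the same 4 higher in both genotypes, 3 were called in Clec9a gfp/gfp but not in WT cells on this scale, and 7 in neither. The median change of the carriers was -0.84 in Clec9a gfp/gfp cells and -0.90 in WT cells on the log2(intensity + 16) scale, where the median of all rows was -0.05 and -0.04. The pseudocount of 16 understates the change of dim genes. Whether replicates were separate cultures or animals is not stated in the labels, so these p-values measure the spread between samples, which may be technical.

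Genes with an annotated symbol, and bright rows, fell more often than other rows, and also rose more often. Over single-symbol genes, 40.1% were lower and 20.2% higher in Clec9a gfp/gfp cells, and 39.2% lower and 16.4% higher in WT cells. Of the 18 carriers in the brightest 25% of rows, 14 were lower and 2 higher in each genotype. Of all rows that bright, 56.9% were lower and 21.9% higher in Clec9a gfp/gfp cells, and 54.3% lower and 22.1% higher in WT cells. In the next 25% of rows, 6 of 8 carriers were lower in each genotype, against 49.7% and 47.9% of rows. None of the 8 were higher, against 20% of rows in Clec9a gfp/gfp cells and 17.2% in WT cells. Of the 12 carriers in the 25% of rows below that, 5 were lower in each genotype and 4 were higher in Clec9a gfp/gfp cells and 2 in WT cells. There 17.7% of rows were lower and 19.3% higher in Clec9a gfp/gfp cells, and 17.4% lower and 14.4% higher in WT cells. The dimmest carrier was Slc25a21. The 3 arrays with dead cells lay entirely below the 3 untreated ones for 26 carriers in each genotype and entirely above them for 7, where 34.2% of all rows lay below in each genotype and 21.8% (Clec9a gfp/gfp) and 20.7% (WT) above.

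**Figure D1:**
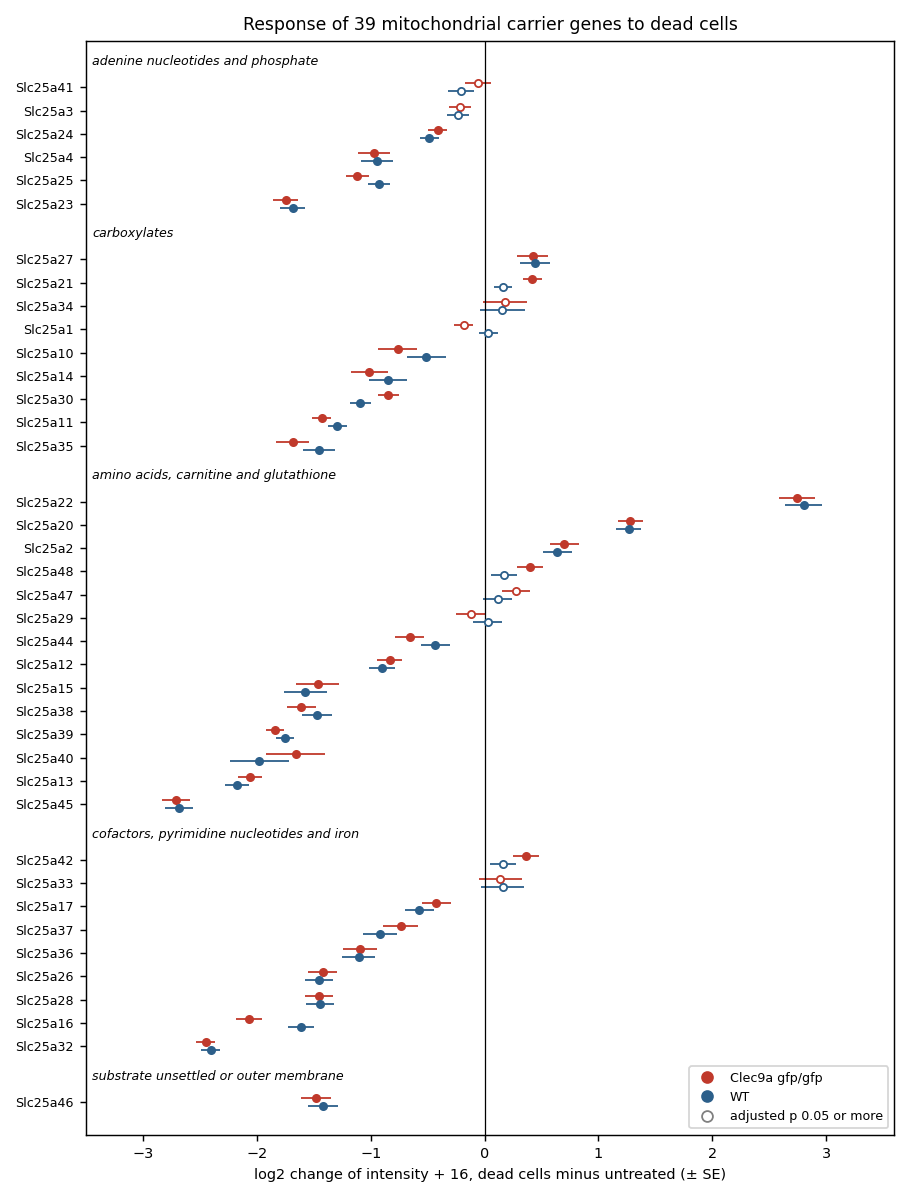
Change of each of the 39 carriers in cells kept with dead cells against untreated cells, on the log2(intensity + 16) scale, with its standard error, for Clec9a gfp/gfp (red) and WT (blue) cells, grouped by substrate. Filled points passed an adjusted p of 0.05, and Slc25a22 (2.74 and 2.80) and Slc25a45 (-2.71 and -2.68) mark the ends of the range.

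The arrays themselves differed by treatment. Median intensity was 77.9 to 85.9 on the 6 arrays with dead cells and 93.6 to 101 on the 6 untreated ones, and the upper quartile was 231 to 259 with dead cells and 396 to 437 untreated. The counts of higher and lower carriers therefore depend on how arrays are scaled. After quantile normalization 20 carriers were lower and 10 higher in Clec9a gfp/gfp cells, and 22 lower and 9 higher in WT cells, while over all rows 24.3% were lower and 28.5% higher in Clec9a gfp/gfp cells and 24.2% lower and 27% higher in WT cells. With each array shifted to one median, 23 carriers were lower and 8 higher in each genotype. All rows then gave 27.6% lower and 32.1% higher in Clec9a gfp/gfp cells, and 27% lower and 30% higher in WT cells. Shares of single-symbol genes or of equally bright rows, which fell more often on the deposited scale, were not computed for these scalings. The excess of lower carriers over such genes is therefore not known there. Relative to the deposited scale the median of all rows moved by 0.15 in both genotypes with quantile normalization, and by 0.24 (Clec9a gfp/gfp) and 0.22 (WT) with the shift.

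On all 3 scalings 20 carriers were lower in both genotypes and 4 were higher. The share of all rows called alike in both genotypes on all 3 scalings was not computed, so these counts have no background beside them. The 20 were Slc25a4, Slc25a11 to Slc25a16, Slc25a23, Slc25a25, Slc25a26, Slc25a28, Slc25a32, Slc25a35 to Slc25a40, Slc25a45 and Slc25a46. The 4 were Slc25a2, Slc25a20, Slc25a22 and Slc25a27. The other 5 that were lower on the deposited scale, Slc25a10, Slc25a17, Slc25a24, Slc25a30 and Slc25a44, lost the call in at least 1 genotype under another scaling.

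**Figure D2:**
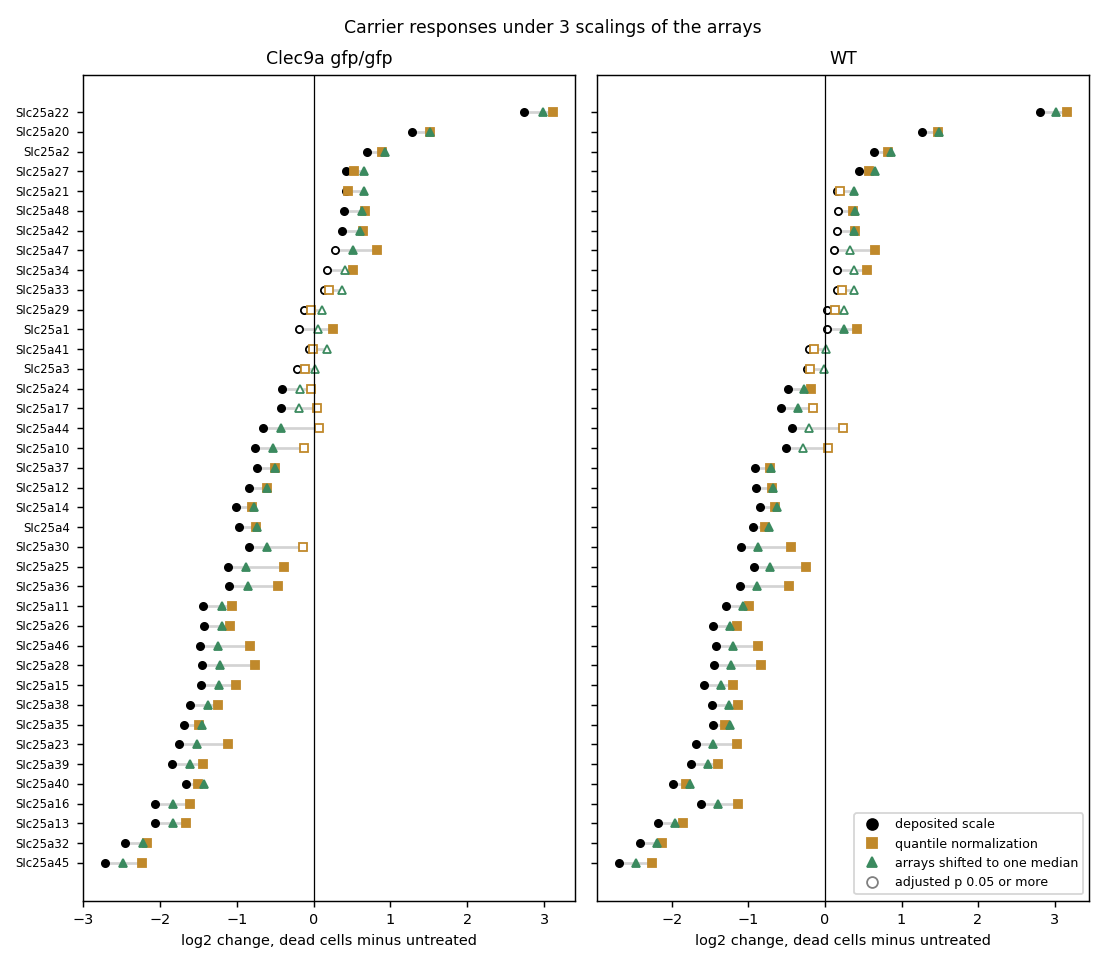
Log2 change of each carrier, dead cells minus untreated, in Clec9a gfp/gfp (left) and WT (right) cells on the deposited scale (circles), after quantile normalization (squares) and with arrays shifted to one median (triangles). Open symbols did not pass an adjusted p of 0.05, and 20 carriers were lower and 4 higher in both genotypes on all 3 scalings. The matching share of all rows was not computed.

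Promoter sequences are printed for the glutamate and carnitine/acylcarnitine carriers, Slc25a22 and Slc25a20, which had the largest rises, and for Slc25a45 and Slc25a13, which fell and had a window to print. Each runs 5′ to 3′ from 250 bases before to 50 bases after a gene start of RefSeq on build GRCm38.p6, which is not the mm8 build of the arrays. The Slc25a22 window is chr7:141435326-141435625 on the minus strand and is the only 1 of 3 for that gene with a motif match. The Slc25a20 window is chr9:108661886-108662185 on the plus strand, the Slc25a45 window is chr19:5877572-5877871 on the plus strand and the Slc25a13 window is chr6:6217124-6217423 on the minus strand. Capitals mark 2 overlapping matches to the core motif of interferon regulatory factors (IRF-type, AANNGAAA) in Slc25a22 and a match to an E-box (CACGTG) in Slc25a13.
Slc25a22: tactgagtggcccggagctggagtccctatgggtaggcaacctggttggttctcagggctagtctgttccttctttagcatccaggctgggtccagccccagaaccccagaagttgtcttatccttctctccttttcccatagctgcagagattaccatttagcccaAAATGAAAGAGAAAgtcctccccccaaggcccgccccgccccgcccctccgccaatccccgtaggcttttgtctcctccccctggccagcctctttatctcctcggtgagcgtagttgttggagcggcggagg
Slc25a20: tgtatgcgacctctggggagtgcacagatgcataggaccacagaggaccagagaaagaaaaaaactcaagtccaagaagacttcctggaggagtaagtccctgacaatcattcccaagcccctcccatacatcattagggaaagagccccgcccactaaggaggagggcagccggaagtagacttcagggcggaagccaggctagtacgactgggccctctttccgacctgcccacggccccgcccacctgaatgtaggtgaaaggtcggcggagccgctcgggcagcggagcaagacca
Slc25a45: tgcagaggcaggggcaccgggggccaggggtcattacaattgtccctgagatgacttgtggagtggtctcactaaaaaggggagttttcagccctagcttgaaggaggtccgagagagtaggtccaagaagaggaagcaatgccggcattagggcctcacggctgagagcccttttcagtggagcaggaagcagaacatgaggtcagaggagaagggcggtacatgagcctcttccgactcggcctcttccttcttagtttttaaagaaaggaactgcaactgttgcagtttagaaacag
Slc25a13: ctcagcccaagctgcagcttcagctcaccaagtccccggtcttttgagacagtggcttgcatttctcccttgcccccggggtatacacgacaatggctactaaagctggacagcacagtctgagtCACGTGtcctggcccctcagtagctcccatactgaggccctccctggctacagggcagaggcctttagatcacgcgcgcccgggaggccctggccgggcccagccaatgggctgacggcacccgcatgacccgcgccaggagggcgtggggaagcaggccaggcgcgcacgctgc

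The E-box, the IRF-type motif and a motif of oestrogen-related receptors (ERR-type, TCAAGGTCA) were searched on both strands in the 39 windows of the 30 carriers that had one and in all 32851 windows. They were chosen after the values were seen, and a match describes letters, not a bound site. The IRF-type motif was in 23.9% of all windows and in 6 carrier windows, of Slc25a14, Slc25a15, Slc25a21, Slc25a22 and Slc25a25, of which Slc25a22 was higher and Slc25a14, Slc25a15 and Slc25a25 were lower in both genotypes. The E-box was in 7.15% of all windows and in 7 carrier windows, of Slc25a1, Slc25a13, Slc25a14, Slc25a15, Slc25a33 and Slc25a36. The ERR-type motif was in 0.423% of all windows and in 0 carrier windows. Carrier windows had a median GC content of 59% and a median of 15 CpG, against 52.7% and 7 over all windows. No window was printed or searched for Slc25a2, Slc25a26, Slc25a27, Slc25a32, Slc25a35, Slc25a37, Slc25a41, Slc25a44 and Slc25a46.

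Slc25a22, a carrier of glutamate into mitochondria, had the largest rise of any carrier. It read 1278, 1406 and 1182 in Clec9a gfp/gfp cells with dead cells and 138, 213 and 192 in untreated Clec9a gfp/gfp cells. In WT cells it read 1471, 1235 and 1637 with dead cells and 214, 198 and 168 untreated. Every array with dead cells was above every untreated array, and the ratio of the group means was 7.12 in Clec9a gfp/gfp cells and 7.50 in WT cells. The log2 change was 2.74 ± 0.16 in Clec9a gfp/gfp cells (SE, n = 3 against 3, limma adjusted p = 1.06e-07) and 2.80 ± 0.16 in WT cells (limma adjusted p = 9.37e-08).

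Slc25a20, the exchanger that brings acylcarnitines into the matrix for fatty acid oxidation, was the next. Its intensity was 2805, 3146 and 2874 in Clec9a gfp/gfp cells with dead cells and 1327, 1029 and 1263 without. In WT cells it was 2373, 2641 and 2851 with dead cells and 1061, 1093 and 1079 without. The groups did not overlap in either genotype, and the change was 1.28 ± 0.11 in Clec9a gfp/gfp cells (limma adjusted p = 2.04e-06) and 1.27 ± 0.11 in WT cells (limma adjusted p = 2.38e-06). The carrier's rise was not shared by the enzymes on either side of it: of 9 measured genes of carnitine handling and fatty acid oxidation, 8 were lower in both genotypes and 0 higher. Among single-symbol genes 40.1% were lower and 20.2% higher in Clec9a gfp/gfp cells, and 39.2% lower and 16.4% higher in WT cells. Cpt1a, which makes long-chain acylcarnitines at the outer membrane, changed by -0.07 ± 0.08 in Clec9a gfp/gfp cells and -0.09 ± 0.08 in WT cells and was not called. Cpt2, which takes them apart in the matrix, changed by -0.66 ± 0.15 in Clec9a gfp/gfp cells and -0.59 ± 0.15 in WT cells. Crat, the carnitine acetyltransferase, fell by 2.05 ± 0.13 and 1.74 ± 0.13 on the log2 scale in these genotypes, and Acadm and Etfb of the oxidation pathway also fell.

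The other 2 carriers that rose in both genotypes were dim. Slc25a2, described in humans as an ornithine carrier, read 79, 121 and 88.5 in Clec9a gfp/gfp cells with dead cells and 48, 56.6 and 52.4 without. It read 93.6, 86.1 and 102 in WT cells with dead cells and 52.9, 55.6 and 55 without, and no group with dead cells overlapped its untreated group. The change was 0.70 ± 0.13 in Clec9a gfp/gfp cells (limma adjusted p = 0.000786) and 0.64 ± 0.13 in WT cells (limma adjusted p = 0.00154). Slc25a27, the uncoupling-protein relative also called UCP4, read 75.1, 74.5 and 61.4 with dead cells and 51.2, 54.9 and 39.8 without in Clec9a gfp/gfp cells, and 79.4, 89.6 and 62.4 with and 48.2, 56.5 and 51.9 without in WT cells. Its groups also stood apart, at 0.42 ± 0.13 in Clec9a gfp/gfp cells (limma adjusted p = 0.0223) and 0.44 ± 0.13 in WT cells (limma adjusted p = 0.0191), but leaving out single arrays ended the call in either genotype (0.32 to 0.39 with limma adjusted p = 0.0697 to 0.0924 in Clec9a gfp/gfp cells, and 0.34 to 0.42 with 0.0549 to 0.0775 in WT cells).

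On the deposited scale a further 3 passed the threshold for a rise in Clec9a gfp/gfp but not in WT cells: Slc25a21 (the oxodicarboxylate carrier), Slc25a42 (which imports coenzyme A) and Slc25a48 (a choline carrier). Slc25a21 changed by 0.42 in Clec9a gfp/gfp cells and 0.16 in WT cells, Slc25a42 by 0.37 and 0.16, and Slc25a48 by 0.40 and 0.17. In WT cells Slc25a42 and Slc25a48 were called higher under both other scalings (0.39 and 0.37 after quantile normalization, 0.38 and 0.39 with the median shift), and Slc25a21 with the median shift (0.38). None of the 3 passed the test of the difference between the genotypes' responses, and the calls of Slc25a42 (0.30 to 0.33, limma adjusted p = 0.0685 to 0.0811) and Slc25a48 (0.32 to 0.34, limma adjusted p = 0.0561 to 0.0583) were lost without single arrays.

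**Figure D3:**
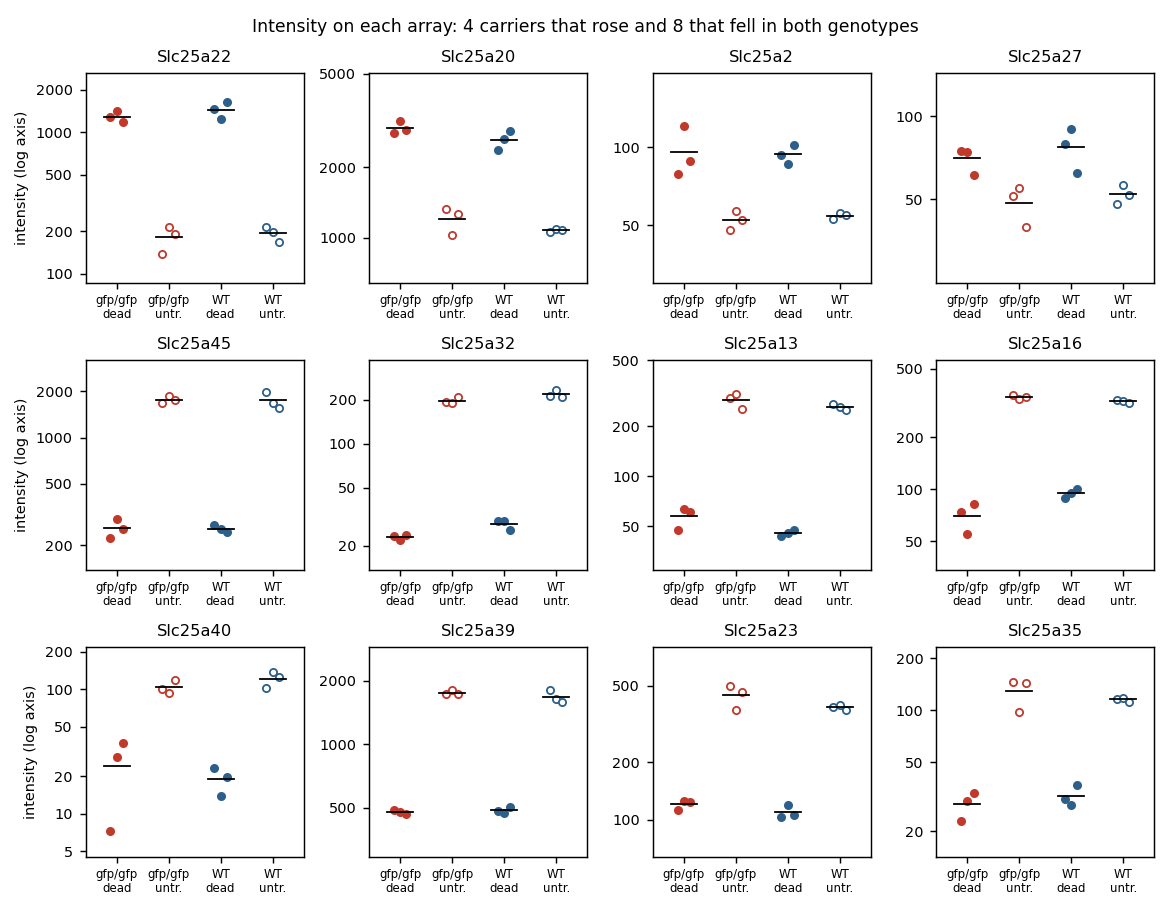
Intensity on each array (log axis) for the 4 carriers that rose and 8 of those that fell in both genotypes, with bars at the group means. In each of these 12 panels and in each genotype, the 3 arrays with dead cells (filled) lay apart from the 3 untreated arrays (open), as for Slc25a22 at 1182 to 1406 against 138 to 213 in Clec9a gfp/gfp cells.

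Among the 6 carriers of adenine nucleotides and phosphate, 4 were lower in both genotypes and 0 higher. Of single-symbol genes, 40.1% were lower and 20.2% higher in Clec9a gfp/gfp cells, and 39.2% lower and 16.4% higher in WT cells. No class of carriers was tested against these shares. Slc25a4, the heart and muscle type of ADP/ATP exchanger (ANT1), read 1109, 1166 and 1229 in Clec9a gfp/gfp cells with dead cells and 2701, 1991 and 2279 without. It read 1056, 1117 and 1350 in WT cells with dead cells and 2146, 2088 and 2587 without. All arrays with dead cells lay below all untreated ones, with changes of -0.97 ± 0.14 in Clec9a gfp/gfp cells (limma adjusted p = 0.000111) and -0.95 ± 0.14 in WT cells (limma adjusted p = 0.000145). Its close relative Slc25a5 was not analysed here.

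The calcium-regulated exchangers of ATP-Mg for phosphate set the size of the matrix adenine nucleotide pool, and all 3 were lower. Slc25a23 read 113, 126 and 123 in Clec9a gfp/gfp cells with dead cells and 497, 375 and 462 without, and 103, 119 and 106 in WT cells with dead cells and 389, 396 and 374 without. Its groups were far apart, at -1.75 ± 0.11 in Clec9a gfp/gfp cells and -1.69 ± 0.11 in WT cells. Slc25a25 changed by -1.12 and -0.93 and Slc25a24 by -0.41 and -0.49, and Slc25a24 in Clec9a gfp/gfp cells was no longer called with either other scaling. Slc25a41, which lacks the calcium-binding part, and Slc25a3, the phosphate and copper carrier, were not called, with changes of -0.05 and -0.20 for Slc25a41 and -0.22 and -0.23 for Slc25a3.

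Of the 9 carboxylate carriers and their relatives, 5 were lower in both genotypes, beside 40.1% and 39.2% of single-symbol genes. On the deposited scale Slc25a27 was higher in both genotypes and Slc25a21 in Clec9a gfp/gfp cells. Single-symbol genes were higher in 20.2% of cases in Clec9a gfp/gfp cells and 16.4% in WT cells. Slc25a11, the oxoglutarate/malate exchanger of the malate-aspartate shuttle, read 598, 558 and 653 in Clec9a gfp/gfp cells with dead cells and 1685, 1659 and 1609 without. It read 660, 650 and 678 in WT cells with dead cells and 1600, 1644 and 1695 without. The arrays with dead cells lay within 558 to 678 and the untreated arrays within 1600 to 1695, with changes of -1.43 ± 0.08 in Clec9a gfp/gfp cells (limma adjusted p = 7.61e-08) and -1.29 ± 0.08 in WT cells (limma adjusted p = 1.6e-07). Slc25a10, the dicarboxylate carrier, changed by -0.76 in Clec9a gfp/gfp cells and -0.51 in WT cells, and after quantile normalization it was called in neither, at -0.13 and 0.042. The call in WT cells was also lost with the median shift and without single arrays (-0.51 to -0.39, limma adjusted p = 0.0676 to 0.114).

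Slc25a1, the citrate carrier that supplies cytosolic citrate for fatty acid synthesis, was not called on the deposited scale. Its direction in Clec9a gfp/gfp cells depended on the scaling. It read 881, 806 and 886 in Clec9a gfp/gfp cells with dead cells and 969, 1028 and 931 without. In WT cells it read 905, 850 and 953 with dead cells and 884, 911 and 854 without. These groups overlapped in WT cells, and the changes were -0.18 ± 0.08 in Clec9a gfp/gfp cells (limma adjusted p = 0.0934) and 0.03 ± 0.08 in WT cells (limma adjusted p = 0.801). After quantile normalization the change was 0.25 in Clec9a gfp/gfp cells and 0.41 in WT cells, both called. With the median shift it was 0.05 in Clec9a gfp/gfp cells, not called, and 0.25 in WT cells, called (limma adjusted p = 0.0376).

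The orphan carrier Slc25a35 read 22.9, 29.8 and 33.4 in Clec9a gfp/gfp cells with dead cells and 145, 98.4 and 143 without, and 30.6, 28.5 and 37.2 in WT cells with dead cells and 116, 118 and 112 without. It was below the lower quartile of its array on 5 of the arrays, and its change was -1.69 ± 0.14 in Clec9a gfp/gfp cells and -1.46 ± 0.14 in WT cells. Its relative Slc25a34 had overlapping groups in each genotype and was not called on the deposited scale, at 0.18 ± 0.20 in Clec9a gfp/gfp cells and 0.16 ± 0.20 in WT cells. After quantile normalization it was called higher in both, at 0.52 (limma adjusted p = 0.0422) and 0.55 (limma adjusted p = 0.0344) in these genotypes. The UCP-like carriers Slc25a14 and Slc25a30 were lower, by log2 changes of -1.01 and -0.85 in Clec9a gfp/gfp cells and -0.85 and -1.09 in WT cells.

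The 14 carriers of amino acids, carnitine and glutathione held both ends of the range of log2(intensity + 16) changes, with 8 lower in both genotypes and 3 higher in both. Single-symbol genes were lower in 40.1% and higher in 20.2% of cases in Clec9a gfp/gfp cells, and in 39.2% and 16.4% in WT cells. Slc25a45, described in humans as a carrier of methylated basic amino acids, had the largest fall on the log2(intensity + 16) scale, while the ratio of group means was larger for Slc25a32. It read 222, 295 and 255 in Clec9a gfp/gfp cells with dead cells and 1672, 1874 and 1757 without. In WT cells it read 271, 256 and 243 with dead cells and 1991, 1683 and 1557 without. Group means were 6.87 times lower in Clec9a gfp/gfp cells with dead cells and 6.79 times lower in WT cells with dead cells, and the log2 changes were -2.71 ± 0.12 (limma adjusted p = 2e-08) and -2.68 ± 0.12 (limma adjusted p = 2.12e-08) in these genotypes.

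Slc25a13 (citrin) and Slc25a12 (aralar) are the paired aspartate/glutamate exchangers of the malate-aspartate shuttle. Slc25a13 read 47.5, 63.1 and 60.7 in Clec9a gfp/gfp cells with dead cells and 298, 314 and 255 without, and 43.6, 45.3 and 47.6 in WT cells with dead cells and 273, 262 and 250 without. It stood well apart in both genotypes, with changes of -2.06 ± 0.11 (Clec9a gfp/gfp, limma adjusted p = 4.74e-08) and -2.17 ± 0.11 (WT, limma adjusted p = 3.56e-08). Slc25a12 also fell, by less, with changes of -0.84 ± 0.11 in Clec9a gfp/gfp cells and -0.90 ± 0.11 in WT cells.

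The glutathione carrier Slc25a39 read 488, 474 and 468 in Clec9a gfp/gfp cells with dead cells and 1727, 1799 and 1729 without, and 481, 470 and 504 in WT cells with dead cells and 1804, 1632 and 1580 without. Its replicates were close together and its changes were -1.84 ± 0.08 in Clec9a gfp/gfp cells (limma adjusted p = 1.6e-08) and -1.75 ± 0.08 in WT cells (limma adjusted p = 2.1e-08). Its paralogue Slc25a40 read 7.23, 28.5 and 36.9 in Clec9a gfp/gfp cells with dead cells and 100, 93.7 and 120 without, and 23.2, 13.9 and 19.7 in WT cells with dead cells and 103, 137 and 125 without. Slc25a40 was also lower in both genotypes, but its readings with dead cells were scattered and lay below the lower quartile of the array on 5 arrays. Its changes of -1.66 ± 0.26 in Clec9a gfp/gfp cells and -1.98 ± 0.26 in WT cells had the largest error of any carrier.

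Slc25a38, the glycine carrier on which haem synthesis depends, read 561, 596 and 587 in Clec9a gfp/gfp cells with dead cells and 1830, 1965 and 1640 without, and 483, 533 and 663 in WT cells with dead cells and 1795, 1516 and 1423 without. Its groups stood apart, at -1.61 ± 0.13 in Clec9a gfp/gfp cells and -1.47 ± 0.13 in WT cells. The main ornithine carrier Slc25a15, part of the urea cycle in liver, read 86.4, 63.7 and 98.9 with dead cells and 253, 240 and 272 without in Clec9a gfp/gfp cells, and 95.6, 47.6 and 69.9 with and 255, 240 and 216 without in WT cells. Slc25a15 thus fell, by log2 changes of -1.47 ± 0.19 and -1.57 ± 0.19 in these genotypes, where Slc25a2 rose. The branched-chain amino acid carrier Slc25a44 changed by -0.66 in Clec9a gfp/gfp cells and -0.43 in WT cells, and neither call survived quantile normalization, where its change was 0.08 and 0.23. Slc25a29, a carrier of basic amino acids, and Slc25a47, known from liver, were not called in either genotype on the deposited scale, at -0.12 and 0.03 for Slc25a29 and 0.28 and 0.11 for Slc25a47. After quantile normalization Slc25a47 was called higher in both, at 0.83 in Clec9a gfp/gfp cells (limma adjusted p = 0.000318) and 0.65 in WT cells (limma adjusted p = 0.00178), and with the median shift in Clec9a gfp/gfp cells, at 0.51.

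Of the 9 carriers of cofactors, pyrimidine nucleotides and iron, 7 were lower in both genotypes, beside 40.1% and 39.2% of single-symbol genes. This class had the lowest median of the 4 classes with more than 1 member, at -1.09 in Clec9a gfp/gfp cells and -1.11 in WT cells. Slc25a32, which brings folate and FAD into mitochondria, read 23.3, 21.9 and 23.6 in Clec9a gfp/gfp cells with dead cells and 193, 189 and 209 without. In WT cells it read 29.5, 29.6 and 25.5 with dead cells and 213, 233 and 209 without. On all 6 arrays with dead cells it lay below the lower quartile of the array. The group means differed 8.59 times in Clec9a gfp/gfp cells and 7.75 times in WT cells, a size that is uncertain because no floor of signal could be set for such low readings. The log2 changes were -2.45 ± 0.08 (limma adjusted p = 5.7e-09) and -2.41 ± 0.08 (limma adjusted p = 5.57e-09).

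Slc25a16, linked to coenzyme A in the mitochondrion, read 74.1, 54.7 and 82.6 in Clec9a gfp/gfp cells with dead cells and 351, 333 and 345 without, and 89, 94.8 and 101 in WT cells with dead cells and 329, 326 and 317 without. It fell in both, by changes of -2.07 ± 0.12 in Clec9a gfp/gfp cells and -1.62 ± 0.12 in WT cells, while Slc25a42, the other coenzyme A carrier, did not fall in either. Slc25a26, which imports S-adenosylmethionine, changed by -1.42 and -1.46, and Slc25a17, a carrier of cofactors into peroxisomes, by -0.42 and -0.57. The Slc25a17 groups overlapped in Clec9a gfp/gfp cells, at 606 to 813 with dead cells and 796 to 1072 without, its WT call was lost after quantile normalization (-0.15), and its Clec9a gfp/gfp call was lost under both other scalings and without single arrays (-0.41 to -0.32, limma adjusted p = 0.0535 to 0.0835).

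Slc25a28 (mitoferrin 2) and Slc25a37 (mitoferrin 1) carry iron into mitochondria, and mitoferrin 1 is best known from developing red cells. Slc25a28 read 208, 222 and 262 in Clec9a gfp/gfp cells with dead cells and 657, 629 and 688 without, and 251, 248 and 188 in WT cells with dead cells and 681, 656 and 610 without. Slc25a37 read 56, 63.4 and 79.7 in Clec9a gfp/gfp cells with dead cells and 127, 108 and 127 without, and 61.6, 51.3 and 67.4 in WT cells with dead cells and 126, 156 and 104 without. Both were lower without overlap, Slc25a28 by -1.45 ± 0.12 in each genotype and Slc25a37 by -0.74 ± 0.15 in Clec9a gfp/gfp cells and -0.92 ± 0.15 in WT cells. Of the pyrimidine nucleotide carriers, Slc25a36 was lower by -1.09 and -1.11, and Slc25a33 was not called at 0.14 ± 0.19 and 0.16 ± 0.19. Slc25a46, an outer membrane relative involved in mitochondrial shape rather than transport, was lower by -1.48 ± 0.13 in Clec9a gfp/gfp cells and -1.42 ± 0.13 in WT cells.

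Related carriers were then compared within each array, as the log2 ratio of one member's intensity + 16 to the other's. A factor common to all rows of an array largely cancels in such a ratio, but a difference that depends on brightness does not. Lower quartiles were alike (30.3 to 35.1 with dead cells, 30.9 to 35.9 untreated), while upper quartiles were 231 to 259 and 396 to 437. The size of a ratio's change can therefore depend on the scaling. Only the change of a ratio between treatments was read, since the rows of different genes have no common scale. Of 12 pairs, 10 could be measured, and 8 of these changed at an adjusted p under 0.05 (exact two-sided permutation within genotype, adjusted over the 10 pairs). Pairs of other genes were not compared in this way. Whether 8 of 10 is more than such pairs would give is therefore not known. With 400 arrangements the smallest p possible was 0.005.

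The Slc25a13/Slc25a12 ratio changed by -1.23 in Clec9a gfp/gfp cells and -1.27 in WT cells (exact permutation p = 0.005, adjusted p = 0.00714), a greater fall of citrin than of aralar. The Slc25a42/Slc25a16 ratio changed by 2.43 in Clec9a gfp/gfp cells and 1.77 in WT cells, and the Slc25a35/Slc25a34 ratio by -1.86 and -1.61. The Slc25a33/Slc25a36 ratio changed by 1.23 and 1.26 and the Slc25a24/Slc25a23 ratio by 1.33 and 1.20, so that Slc25a23 lost ground to Slc25a24 among the calcium-regulated carriers. Changes of the Slc25a25/Slc25a23 and Slc25a10/Slc25a11 ratios were smaller, at 0.63 and 0.67 in Clec9a gfp/gfp cells and 0.76 and 0.78 in WT cells. All 7 of these pairs had the smallest possible p, which is reached only where the treatments do not overlap in either genotype.

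The mitoferrin ratio, Slc25a37/Slc25a28, changed by 0.72 in Clec9a gfp/gfp cells and 0.53 in WT cells (exact permutation p = 0.01, adjusted p = 0.0125), with overlapping groups in WT cells. After quantile normalization its change was 0.19 and was not called (adjusted p = 0.217), and with the replicate number as a block its adjusted p was 0.078. The Slc25a40/Slc25a39 ratio changed by 0.18 in Clec9a gfp/gfp cells and -0.23 in WT cells (exact permutation p = 0.91), and the Slc25a30/Slc25a14 ratio by 0.17 and -0.24 (exact permutation p = 0.765). Both depended on the processing: Slc25a40/Slc25a39 changed by 0.65 with a pseudocount of 64 (exact permutation adjusted p = 0.00556), and the Slc25a30/Slc25a14 ratio by 0.43 after quantile normalization (exact permutation adjusted p = 0.0375) and by -0.25 with a pseudocount of 64 (exact permutation adjusted p = 0.03). That they missed the threshold on the deposited scale does not show that the members of these pairs moved alike.

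**Figure D4:**
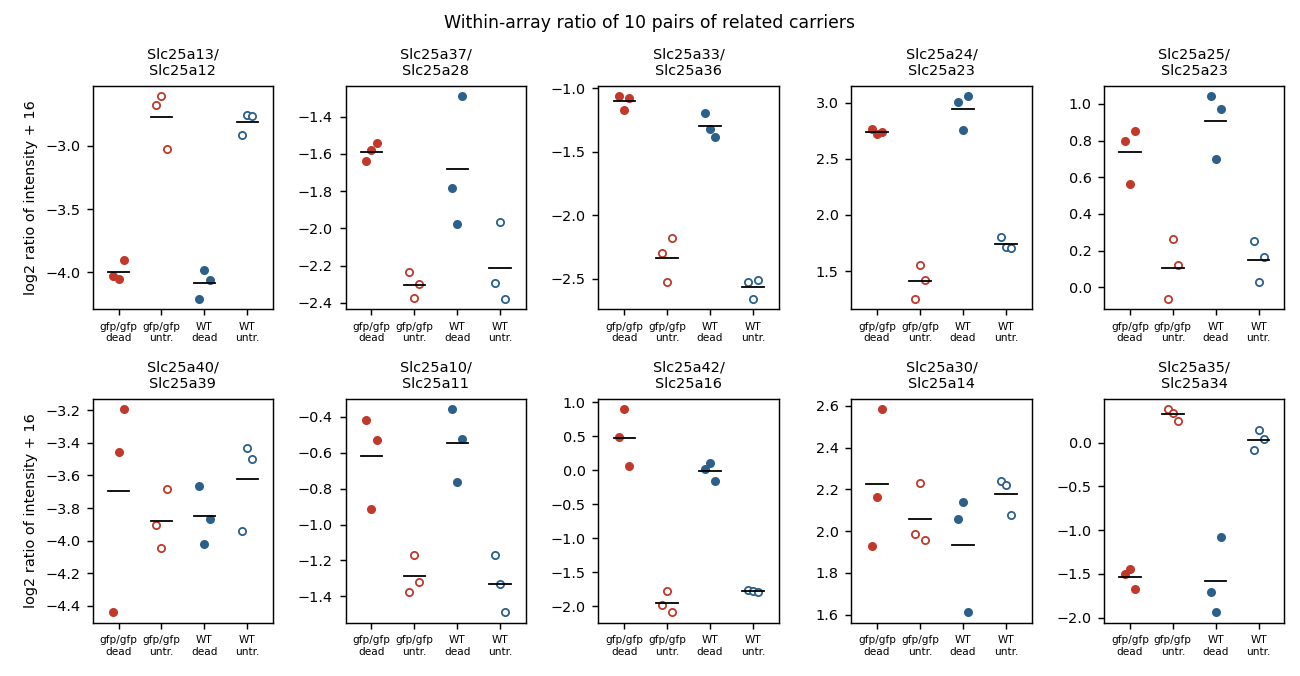
Log2 ratio of the intensities + 16 of 10 pairs of related carriers on each array, in cells with dead cells (filled) and untreated cells (open) of each genotype, with bars at the group means. The change of the ratio passed an adjusted p of 0.05 for 8 pairs. With this pseudocount on the deposited scale it did not for Slc25a40/Slc25a39 or Slc25a30/Slc25a14. Pairs of other genes were not compared, and each panel has its own vertical range.

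The genotypes were compared to ask whether DNGR-1 affects the carriers or their response. In cells with dead cells 0 of 39 carriers differed between Clec9a gfp/gfp and WT cells (limma adjusted p under 0.05), where 0.0043% of all rows did. At an unadjusted p under 0.05 there were 2, Slc25a16 and Slc25a13, against 5.63% of rows. In untreated cells 0 carriers differed, against 0.0301% of rows, and 0 had an unadjusted p under 0.05, against 4.49% of rows. The difference between the genotypes' responses was called for 0 carriers, against 0.0043% of rows, and had an unadjusted p under 0.05 for 2, Slc25a16 and Slc25a21, against 4.29% of rows. With dead cells the arrays of the genotypes stood apart for Slc25a30 and Slc25a48, higher in Clec9a gfp/gfp cells, and for Slc25a16 and Slc25a32, lower there, where 3.9% of rows stood apart upwards and 4.75% downwards. In untreated cells they stood apart for Slc25a1 and Slc25a16, higher, and Slc25a32, lower, against 6.57% and 4.71% of rows.

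Slc25a16 was the nearest to a genotype difference. With dead cells its 3 Clec9a gfp/gfp arrays (54.7 to 82.6) all lay below its 3 WT arrays (89 to 101), a log2 difference of -0.37 ± 0.12 that did not pass adjustment (limma unadjusted p = 0.00846, adjusted p = 0.76). Untreated, its Clec9a gfp/gfp arrays (333 to 351) all lay above its WT arrays (317 to 329). The difference in response was -0.45 ± 0.16 (limma unadjusted p = 0.0188, adjusted p = 0.999), with a 95% interval of -0.81 to -0.09. Slc25a13 was higher in Clec9a gfp/gfp than in WT cells with dead cells by 0.24 ± 0.11 (limma unadjusted p = 0.0465, adjusted p = 0.872).

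Slc25a21 read 42.3, 37.6 and 42.1 in Clec9a gfp/gfp cells with dead cells and 28.7, 25.3 and 25.1 without, and 35.7, 37.9 and 36.1 in WT cells with dead cells and 28.3, 34 and 30.8 without. The groups stood apart by treatment in both genotypes, and its response differed by 0.26 ± 0.12 between them (limma unadjusted p = 0.049). The smallest unadjusted p in untreated cells were those of Slc25a21, at -0.15 ± 0.08 (limma unadjusted p = 0.0948, adjusted p = 1.000), Slc25a24 at -0.15 ± 0.08 and Slc25a23 at 0.19 ± 0.11.

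On the log2(intensity + 16) scale, where a given fold stands for a greater fold in intensity for dim carriers, the 95% interval of the difference in response excluded a 2-fold difference for 38 of the 39 carriers and a 1.5-fold difference for 29. The exception at 2-fold was Slc25a40, with an interval of -0.49 to 1.12. Between genotypes, a 2-fold difference on that scale was excluded for all 39 carriers with and without dead cells, and a 1.5-fold difference for 36 with dead cells and 37 without. The responses of the 39 carriers in the 2 genotypes, which share no arrays, had a Pearson r of 0.989 and a Spearman rho of 0.984 across carriers, which are not independent replicates.

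Genes that work beside the carriers were counted in the same way, beside the 40.1% of single-symbol genes that were lower and 20.2% higher in Clec9a gfp/gfp cells and the 39.2% lower and 16.4% higher in WT cells. Of 4 family members whose symbols are not Slc25a, Mtch1 and Mtch2, which sit in the outer membrane, changed by -1.73 and -1.40 in Clec9a gfp/gfp cells and -1.56 and -1.23 in WT cells. The uncoupling proteins Ucp1 and Ucp3 were called higher by small amounts, 0.45 and 0.29 in Clec9a gfp/gfp cells and 0.52 and 0.47 in WT cells. Of 17 other mitochondrial transporters, 13 were lower and 3 higher in Clec9a gfp/gfp cells and 11 lower and 3 higher in WT cells. The serine transporter Sfxn1 (-1.97 and -1.52), Abcb8 (-2.09 and -2.02), Abcb10 (-1.75 and -1.39) and Smdt1, a subunit of the calcium uniporter (-1.56 and -1.38), were among the lower. The 3 higher were Vdac3 (0.86 and 1.00), an outer membrane pore, Tspo (0.82 and 0.92) and Ghitm (0.50 and 0.43), named after their values were seen.

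Of 6 measured genes that import carriers into the inner membrane, 5 were lower in both genotypes. Timm22, the central subunit of the carrier insertion complex, changed by -1.36 and -0.90, its partner Timm29 by -2.24 and -1.97 and the chaperone Timm9 by -2.01 and -2.19. Tomm70a, the outer membrane receptor for carriers, was higher, by 1.05 in Clec9a gfp/gfp cells and 0.84 in WT cells.

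Among 14 enzymes that share substrates with the carboxylate and glutamate carriers, 12 were lower and 2 higher in Clec9a gfp/gfp cells and 11 lower and 2 higher in WT cells. Idh3a and Fh1 of the citric acid cycle changed by -2.87 and -2.59 in Clec9a gfp/gfp cells and -2.97 and -2.68 in WT cells. Glud1, which uses glutamate in the matrix, changed by -1.27 and -1.29, opposite to the glutamate carrier Slc25a22, and Acly, which cleaves exported citrate, by -1.38 and -1.39. Both enzymes that rose, named after their values were seen, belong to the glycerol phosphate shuttle, which carries reducing power without a carrier: Gpd2 changed by 1.23 ± 0.10 in Clec9a gfp/gfp cells and 1.46 ± 0.10 in WT cells, and Gpd1 by 0.48 and 0.49.

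Of 11 genes of iron, haem and iron-sulphur clusters, 6 were lower and 3 higher in both genotypes. The transferrin receptor Tfrc (-2.31 and -2.34), Glrx5 (-2.55 and -2.56), Nfs1 (-2.46 and -2.45) and the last haem enzyme Fech (-1.52 and -1.65) were lower, as were both mitoferrins and the glycine carrier. Alas1, the first enzyme of haem synthesis, which uses the glycine that Slc25a38 brings in, was higher by 1.20 ± 0.10 in Clec9a gfp/gfp cells and 1.22 ± 0.10 in WT cells, and Slc11a2 and Fth1 were also higher. Of 15 genes of one-carbon, nucleotide and coenzyme A metabolism, not all of them mitochondrial, 13 were lower and 1 higher in both. Mthfd1 changed by -3.20 and -3.19, while the mitochondrial folate enzyme Mthfd2 was higher by 1.01 in Clec9a gfp/gfp cells and 0.85 in WT cells, opposite to the folate carrier Slc25a32. Of 9 regulators of mitochondrial genes 5 were lower in both, Myc (-1.76 and -1.65), Tfb1m (-1.79 and -1.79), Esrra, Pprc1 and Gabpa, and the change of Hif1a was 0.37 ± 0.10 in Clec9a gfp/gfp cells (limma adjusted p = 0.00825) and 0.23 ± 0.10 in WT cells (limma adjusted p = 0.075), with a difference in response of 0.14 ± 0.14 (limma adjusted p = 0.999).

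Markers of the labelled cell type were present in all groups, and many moved with the treatment. Xcr1, a chemokine receptor of cDC1 cells, averaged 2360 ± 36.9 and 3329 ± 384 in Clec9a gfp/gfp cells with and without dead cells and 2366 ± 162 and 3336 ± 230 in WT cells (SD, n = 3 each). Clec9a itself averaged 1.99 and 2.68 in Clec9a gfp/gfp cells with and without dead cells and 1446 and 2625 in WT cells. Of 14 measured cDC1 markers none but Clec9a averaged below 16 in any group. With dead cells 8 were lower and 2 higher in Clec9a gfp/gfp cells, and 9 lower and 2 higher in WT cells. Beside these counts, 40.1% of single-symbol genes were lower and 20.2% higher in Clec9a gfp/gfp cells, and 39.2% lower and 16.4% higher in WT cells. Tlr3 changed by -3.77 and -3.89, Flt3 by -2.03 and -2.05, Naaa by -2.01 and -1.93 and Ly75 by 2.85 and 3.06. The summed intensity of the 14 markers was 40170 to 41711 with dead cells and 59692 to 67988 without in Clec9a gfp/gfp cells, and 42467 to 44949 with and 66481 to 70376 without in WT cells.

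Markers of other cells moved with the treatment, and their part in the carrier changes was not tested. The counts below stand beside 40.1% of single-symbol genes lower and 20.2% higher in Clec9a gfp/gfp cells. In WT cells these shares were 39.2% and 16.4%. All 11 monocyte and macrophage markers were lower in both genotypes, with summed intensities of 1229 to 1649 with dead cells and 14494 to 15586 without in Clec9a gfp/gfp cells, and 1326 to 1584 with and 12442 to 18697 without in WT cells. Of 11 stromal markers 9 were lower in both, with sums of 1464 to 1905 with and 7547 to 11652 without in Clec9a gfp/gfp cells and 1476 to 2423 with and 8456 to 10448 without in WT cells. Of 11 neutrophil markers 6 were lower in Clec9a gfp/gfp cells and 5 in WT cells, and their sum was 969 to 1036 with dead cells and 1599 to 20998 without in Clec9a gfp/gfp cells, against 772 to 964 with and 8146 to 13949 without in WT cells. All 12 S-phase genes were lower in both, with sums of 1603 to 1859 with and 12368 to 13057 without in Clec9a gfp/gfp cells and 1681 to 2005 with and 12156 to 14308 without in WT cells. The 6 erythroid markers, relevant to mitoferrin 1 and Slc25a38, summed to 518 to 562 with and 430 to 499 without in Clec9a gfp/gfp cells and 531 to 579 with and 445 to 468 without in WT cells, and 3 were higher in both genotypes and 0 lower. Of 10 mast cell and basophil markers 5 were lower and 1 higher in Clec9a gfp/gfp cells and 6 lower and 1 higher in WT cells, with sums of 1164 to 1366 with and 4289 to 4912 without in Clec9a gfp/gfp cells and 1088 to 1150 with and 3552 to 4743 without in WT cells. Of 7 plasmacytoid dendritic cell markers 4 were higher in both genotypes, among them the interferon-induced Irf7 (4.59 and 4.54), and 2 and 1 were lower. The lower ones were Ccr9 in both genotypes (-1.86 and -1.84) and Siglech in Clec9a gfp/gfp cells (-0.59). The sum of the 7 was 11047 to 11906 with and 2437 to 2840 without in Clec9a gfp/gfp cells, and 11935 to 12341 with and 2297 to 2558 without in WT cells. Most of its rise came from Irf7 alone. Irf7 averaged 7394 with and 292 without in Clec9a gfp/gfp cells, and 8193 with and 338 without in WT cells. Of 6 B cell markers 3 were lower in Clec9a gfp/gfp cells and 2 in WT cells, with sums of 318 to 358 with and 673 to 1525 without in Clec9a gfp/gfp cells and 272 to 405 with and 527 to 1356 without in WT cells. Of 9 T and NK cell markers 1 was lower and 2 higher in Clec9a gfp/gfp cells and 1 lower and 3 higher in WT cells, with sums of 512 to 598 with and 416 to 524 without in Clec9a gfp/gfp cells and 508 to 544 with and 422 to 454 without in WT cells. In such bulk samples fewer cells of a type and less RNA per cell cannot be told apart.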

How the data were processed

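The authors deposited a linear intensity for each of 23238 array rows in 12 samples. How these intensity values were corrected for background, summarised and normalized, and with which software, is not given in the sources used here. Build mm8 is named in the submitters' processing notes. Per the labels' protocols, RNA was column-purified, depleted of ribosomal RNA and biotin-labelled. Gene names came from the platform annotation, updated through gene IDs to RefSeq (GRCm38.p6). All 39 carriers matched.

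Groups were taken from the labels. Intensities were converted to log2(value + 16) and fitted with limma 3.58.1 in R 4.3.3 (group means over all 12 arrays, eBayes, two-sided, Benjamini-Hochberg adjustment over all rows, called under 0.05). Contrasts were dead cells minus untreated in each genotype, Clec9a gfp/gfp minus WT in each treatment, and the difference between the responses. Paralogue ratios were tested by exact permutation (Python 3.11.15, NumPy 2.4.6, pandas 2.3.3). The fit was also run on simulated data in which few rows changed and arrays did not differ in scale by treatment. That run therefore does not bear on the effect of scaling, and its outcome is not used here. Alternatives were other scalings and pseudocounts, a filter on dim rows, other eBayes settings, fits on fewer arrays, the mean of all rows of a gene, a replicate block and leaving out each array. The number of arrays limits the precision. Detection calls and scan dates were not used here, and batches were not tested.

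The members and gene lists were chosen with earlier results of these data known. Any carrier could be named. Values for each array were given for up to 10 rises and 10 falls with the largest mean response among carriers called alike in both genotypes, for those called in or nearest to a genotype difference, and for Slc25a4. Values of Slc25a1, Slc25a11, Slc25a28 and Slc25a37 were added after they were seen. From other lists up to 4 called genes with the smallest p were named, and Alas1, Acly, Glud1, Gpd1, Gpd2, Mthfd2, Tomm70a, Cpt1a, Cpt2, Slc11a2, Fth1, Gabpa, Hif1a and the marker genes were named after their values were seen.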

Additional observations from a re-analysis of the deposited data

How the results depend on the processing

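Counts of carriers called were within 1.5 times those reported under 167 of 171 combinations of count and alternative. Many of these could hardly move: counts of 0, averages over a carrier's only row, or fits without an array of the other genotype. The total is therefore no measure of stability. In Clec9a gfp/gfp cells the number of higher carriers was 10 after quantile normalization, against 7 as deposited. In WT cells the number of higher carriers was 9 after quantile normalization and 8 with arrays shifted to one median, against 4 as deposited. Leaving out each array in turn gave counts of 4 to 8 carriers higher and 24 to 26 lower among Clec9a gfp/gfp samples, 3 to 4 higher and 23 to 26 lower in WT cells, and 0 to 0 for the genotype and response differences. It left 8 to 8 of the 10 paralogue pairs past the threshold.

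In Clec9a gfp/gfp cells, the call of Slc25a17 was lost without replicate 1 or 3 with dead cells or without untreated replicate 1 or 3, and those of Slc25a27 and Slc25a42 without replicate 1 or 2 with dead cells or untreated replicate 3. That of Slc25a48 was lost without replicate 2 with dead cells or untreated replicate 3. In WT cells, Slc25a10 lost its call without replicate 2 with dead cells or untreated replicate 1 or 2, Slc25a27 without replicate 1 or 2 with dead cells or untreated replicate 1, and Slc25a44 (-0.36 to -0.32, limma adjusted p = 0.0621 to 0.0692) without replicate 3 with dead cells or untreated replicate 1. Calls were gained for Slc25a3 (both genotypes) without Clec9a gfp/gfp untreated replicate 2 and for Slc25a47 without Clec9a gfp/gfp untreated replicate 1. Directions reversed after quantile normalization for Slc25a1 (0.25, limma adjusted p = 0.0277), Slc25a17 (0.041) and Slc25a44 (0.077) in Clec9a gfp/gfp cells, for Slc25a10 (0.042) and Slc25a44 (0.23) in WT cells, and for the Slc25a30/Slc25a14 ratio (0.43, exact permutation adjusted p = 0.0375). The Slc25a40/Slc25a39 ratio reversed with a pseudocount of 64 (0.65, exact permutation adjusted p = 0.00556). The causes were not tested.

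Replicate numbers did not pair the samples: deviations of same-numbered arrays correlated at -0.16 to 0.13, and those of other arrays at -0.14 to 0.18. With the replicate number as a block, 25 carriers were lower and 7 higher among Clec9a gfp/gfp samples, 4 higher and 25 lower in WT cells, 0 differed between genotypes or in response, and 7 pairs changed. Every carrier has 1 row, so averaging the rows of a gene changed nothing. Without detection calls, a floor of signal for dim carriers such as Slc25a32 and Slc25a40 could not be set.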
